A study of Mus musculus with 20 samples.

Results

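The genes described here encode islet autoantigens of type 1 diabetes other than insulin. They are Gad1, Gad2, Ptprn, Ptprn2, Slc30a8 and G6pc2, and each was taken by its symbol from the deposited gene table. They are 6 of the 51810 genes in the table, and all 6 were among the 28932 genes tested. Gad2, Slc30a8 and G6pc2 passed the filter on low counts through the mTEChi libraries alone.

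RNA was measured in medullary thymic epithelial cells (mTEC) of mice aged 4 to 5 weeks, sorted as 75000 cells per sample after enrichment of EpCAM-positive stroma. There were 12 libraries in 4 groups of 3, made of 2 sorted cell types, mTEClo and mTEChi, and 2 genotypes, Trp53 wild type (WT) and the genotype labelled cHyper. Not given in the sources used here were the meaning of cHyper, the alleles it carries, any promoter or Cre that drives them, and the gates of the sort. All groups shared the tissue, the age range and the isolation. The labels do not tie replicates to separate animals, and p-values therefore reflect how these libraries vary, which may be in part technical. Sex-linked RNA, given further on, set replicate 3 apart from replicates 1 and 2 in every group. Whether replicates 1 and 2 came from separate animals is not given. In bulk RNA, fewer cells that express a gene and less of its RNA per cell cannot be told apart.

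Medullary epithelium displays proteins of peripheral tissues to developing T cells, which deletes or diverts T cells that recognise them. Much of this display depends on the regulator Aire, which is high in mature, mTEChi cells. Ptprn, Ptprn2, Slc30a8 and G6pc2 are normally expressed in pancreatic beta cells or neuroendocrine cells. Gad1 and Gad2 encode the glutamate decarboxylases GAD67 and GAD65, which make the transmitter GABA, and GAD65 is the main target of GAD autoantibodies. Ptprn and Ptprn2 encode IA-2 and IA-2 beta, receptor-type phosphatase homologues without the usual catalytic activity that sit in the membrane of dense-core secretory granules. Slc30a8 encodes ZnT8, which loads zinc into insulin granules. G6pc2 encodes IGRP, an islet member of the glucose-6-phosphatase family and a target of diabetogenic CD8 T cells in NOD mice.

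The promoters of 5 of the 6 members were matched by symbol in the RefSeq table (GRCm38.p6) and are shown because they differ in base composition. Whether base composition has a part in the member levels was not tested. Each sequence covers 250 bases before to 50 bases after an annotated start, reads 5′ to 3′ on the gene's strand, and has its CG dinucleotides in capitals.
Gad1, chr2:70561879-70562178, plus strand: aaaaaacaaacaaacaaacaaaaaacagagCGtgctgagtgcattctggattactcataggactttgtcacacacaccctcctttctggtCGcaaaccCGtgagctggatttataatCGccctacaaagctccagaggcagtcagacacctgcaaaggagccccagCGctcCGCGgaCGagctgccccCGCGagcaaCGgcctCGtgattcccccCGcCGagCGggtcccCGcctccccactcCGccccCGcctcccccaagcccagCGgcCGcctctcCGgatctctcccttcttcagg
Gad2, chr2:22622077-22622376, plus strand: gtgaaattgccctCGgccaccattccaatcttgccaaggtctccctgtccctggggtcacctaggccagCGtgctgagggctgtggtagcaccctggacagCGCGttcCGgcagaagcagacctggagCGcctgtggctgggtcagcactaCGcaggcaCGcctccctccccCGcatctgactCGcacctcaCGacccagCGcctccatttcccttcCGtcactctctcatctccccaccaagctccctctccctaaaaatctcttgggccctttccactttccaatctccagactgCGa
Ptprn, site 1, chr1:75264159-75264458, minus strand: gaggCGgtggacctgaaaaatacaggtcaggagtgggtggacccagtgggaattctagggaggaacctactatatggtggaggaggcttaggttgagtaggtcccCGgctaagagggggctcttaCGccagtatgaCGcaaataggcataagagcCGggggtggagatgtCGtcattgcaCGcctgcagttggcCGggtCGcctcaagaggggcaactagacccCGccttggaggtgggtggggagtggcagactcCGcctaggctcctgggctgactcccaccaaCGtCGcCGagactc
Ptprn, site 2, chr1:75263722-75264021, minus strand: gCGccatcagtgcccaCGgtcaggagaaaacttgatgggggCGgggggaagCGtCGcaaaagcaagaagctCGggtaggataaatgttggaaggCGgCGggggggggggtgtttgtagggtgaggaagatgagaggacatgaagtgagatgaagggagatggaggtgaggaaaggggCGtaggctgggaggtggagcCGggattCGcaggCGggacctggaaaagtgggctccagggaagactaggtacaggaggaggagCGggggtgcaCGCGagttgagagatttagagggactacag
Ptprn2, chr12:116485470-116485769, plus strand: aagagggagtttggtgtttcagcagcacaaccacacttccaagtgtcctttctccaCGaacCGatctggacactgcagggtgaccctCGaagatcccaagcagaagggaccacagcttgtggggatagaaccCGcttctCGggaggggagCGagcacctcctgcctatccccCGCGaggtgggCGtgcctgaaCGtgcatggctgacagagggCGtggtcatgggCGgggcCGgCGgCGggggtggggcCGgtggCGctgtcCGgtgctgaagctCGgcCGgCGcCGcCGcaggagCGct
G6pc2, site 1, chr2:69210823-69211122, plus strand: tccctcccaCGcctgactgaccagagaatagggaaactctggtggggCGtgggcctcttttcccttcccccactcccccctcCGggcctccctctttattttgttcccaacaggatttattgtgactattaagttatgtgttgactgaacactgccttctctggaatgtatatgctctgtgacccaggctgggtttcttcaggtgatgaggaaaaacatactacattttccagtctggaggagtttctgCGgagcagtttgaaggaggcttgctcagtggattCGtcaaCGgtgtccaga
G6pc2, site 2, chr2:69219699-69219998, plus strand: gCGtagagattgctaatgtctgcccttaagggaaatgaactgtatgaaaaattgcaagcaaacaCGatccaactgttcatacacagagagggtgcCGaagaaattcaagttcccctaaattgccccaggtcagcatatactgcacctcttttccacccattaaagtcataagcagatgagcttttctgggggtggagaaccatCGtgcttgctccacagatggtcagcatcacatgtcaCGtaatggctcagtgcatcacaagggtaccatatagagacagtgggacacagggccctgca
Ptprn2 held 24 CG dinucleotides and Gad1 held 21, against a median of 7 over 32851 promoters of 300 bases, of which 20.0% held as many as Ptprn2 and 24.8% as many as Gad1. Gad2 held 14, and the Ptprn sites held 14 and 15. The G6pc2 sites held 6 and 5, and 56.4% and 62.0% of all promoters held as many. The motif TATAAA, searched on both strands, occurred in the Gad1 sequence alone and in 13.6% of all promoters. The E-box motif CANNTG, which reads as itself on the other strand, occurred 4 times at G6pc2 site 2, once in Gad1, Gad2, Ptprn2, Ptprn site 1 and G6pc2 site 1, and not at Ptprn site 2. It occurred in 72.3% of all promoters.

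All 6 members were higher in mTEChi than in mTEClo in both genotypes, and for each of them the mTEChi libraries lay above the mTEClo libraries of the same genotype. The direction of Gad2, Slc30a8 and G6pc2 was fixed by the filter, which they passed through mTEChi alone. The other 3, Gad1, Ptprn and Ptprn2, were all called higher in WT, where 40.2% of all tested genes were called higher and 69.5% in either direction. They were also all called higher in cHyper, where 38.7% were called higher and 64.5% in either direction. Groups did not overlap for 73.3% of tested genes in WT, with mTEChi higher for 41.8%, and for 68.7% in cHyper, with mTEChi higher for 40.3%. Another scaling moved the median log2 difference of all genes from 0.12 (edgeR's TMM scaling) to 0.34 (library totals) in WT and from 0.13 to 0.30 in cHyper, so folds between the cell types are relative to that shift. Levels of one gene are given as CPM on the TMM scale, which divides fragments by library size, and levels are compared between genes as TPM, which also divides by gene length.

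**Figure D1:**
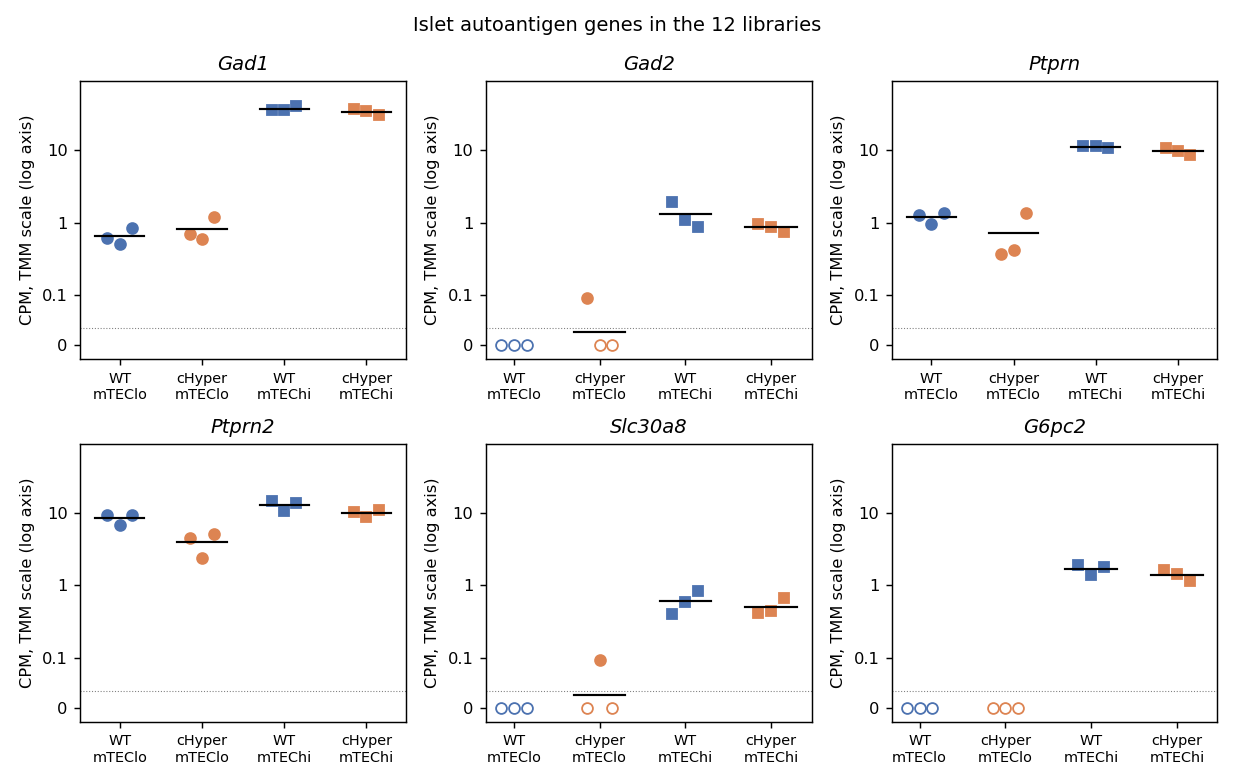
Level of each of the 6 genes in the 12 libraries, in CPM on the TMM scale on a log axis. Libraries at 0 are drawn at a fixed place below the dotted line, at the mark labelled 0. The mean bars of Gad2 (0.0304 CPM) and Slc30a8 (0.0306 CPM) in cHyper mTEClo also lie below that line and are not 0. Points are libraries, open points are libraries with 0 fragments, and bars are means of 3 libraries. Every mTEChi library lies above every mTEClo library of its genotype for each gene, and the mTEClo libraries of G6pc2 are all at 0.

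Of the GABA-synthesising enzymes, Gad1 (ENSMUSG00000070880, mm10 chromosome 2, 70553072 to 70602014, plus strand) was the member with the highest level in mTEChi. It had 26, 22 and 18 fragments in the WT mTEClo libraries and 1668, 1645 and 1112 in the WT mTEChi libraries, which is 0.614, 0.509 and 0.844 CPM against 35.4, 35.6 and 40.1 CPM. The cHyper libraries held 0.685, 0.597 and 1.18 CPM in mTEClo and 36.9, 35.0 and 30.2 CPM in mTEChi. All libraries of a cell type thus stood at a similar level, and the cell types were more than an order of magnitude apart. Gad1 was 58.7-fold higher in mTEChi in WT (log2 5.87, SE 0.22, edgeR adjusted p = 5.88e-11) and 43.5-fold higher in cHyper (log2 5.44, SE 0.21, edgeR adjusted p = 1.32e-10). In WT mTEChi its TPM was 11.9 ± 0.495 (SD, n = 3), above the mean TPM of 63.5% of tested genes.

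Gad2 (ENSMUSG00000026787, mm10 chromosome 2, 22622205 to 22693874, plus strand), which encodes the isoform that autoantibodies mainly recognise, was far lower. It had 0 fragments in all WT mTEClo libraries, which allows up to 3 fragments over the group or 0.0281 CPM, and 4, 0 and 0 in cHyper mTEClo. In mTEChi it had 91, 50 and 24 fragments in WT (1.93, 1.08 and 0.865 CPM) and 44, 38 and 18 in cHyper (0.965, 0.876 and 0.740 CPM). Gad2 RNA was therefore seen in every mTEChi library and in 1 of 6 mTEClo libraries. It was at least 48.6-fold higher in mTEChi in WT (floor of 3 fragments over the group, edgeR adjusted p = 1.11e-05) and 22.6-fold higher in cHyper (log2 4.50, SE 0.73, edgeR adjusted p = 0.000146). The filter fixed this direction, so these p-values are no support for it. The cHyper fold rests on the 4 fragments of mTEClo replicate 1. It was 14.5 without mTEClo replicate 2, and without replicate 1 the group is at 0 and its fitted fold of 256 is no bound. Per length, Gad1 exceeded Gad2 in TPM by 14.1, 25.3 and 35.6 times in the WT mTEChi libraries and by 29.4, 30.7 and 31.4 times in the cHyper mTEChi libraries. Gad2 had the lowest TPM of the 6 members in WT mTEChi, 0.548 ± 0.269 (SD, n = 3).

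Of the granule phosphatase homologues, Ptprn (ENSMUSG00000026204, mm10 chromosome 1, 75247027 to 75264502, minus strand) differed more between the cell types than Ptprn2. In WT, Ptprn stood at 1.27, 0.948 and 1.36 CPM in mTEClo and 11.3, 11.3 and 10.5 CPM in mTEChi. In cHyper it stood at 0.365, 0.414 and 1.34 CPM in mTEClo and 10.6, 9.80 and 8.43 CPM in mTEChi. One cHyper mTEClo library, replicate 3, was thus at the WT level, and the other 2 were below every WT library. Ptprn was 9.35-fold higher in mTEChi in WT (log2 3.22, SE 0.32, edgeR adjusted p = 5.24e-07) and 14.9-fold higher in cHyper (log2 3.90, SE 0.35, edgeR adjusted p = 1.8e-07). Without cHyper mTEClo replicate 3 the cHyper fold was 23.9.

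Ptprn2 (ENSMUSG00000056553, mm10 chromosome 12, 116485720 to 117276849, plus strand) was the only member with more than 2 CPM in every mTEClo library. It stood at 9.25, 6.85 and 9.42 CPM in the mTEClo libraries of WT, 4.48, 2.39 and 5.13 in cHyper mTEClo, 14.8, 10.6 and 13.5 in WT mTEChi, and 10.3, 8.74 and 10.8 in cHyper mTEChi. The highest WT mTEClo library was close to the lowest WT mTEChi library, and the cHyper mTEClo libraries lay below all others. Ptprn2 was 1.53-fold higher in mTEChi in WT (log2 0.61, SE 0.23, edgeR adjusted p = 0.0298) and 2.51-fold higher in cHyper (log2 1.33, SE 0.24, edgeR adjusted p = 0.000225). The WT call ended without WT mTEClo replicate 2 (edgeR adjusted p = 0.118), WT mTEChi replicate 1 (0.105) or WT mTEChi replicate 3 (0.0674), and the cHyper call did not end when any 1 library was left out.

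The paralogues changed their order in TPM between the cell types. The ratio of Ptprn to Ptprn2 TPM was 0.279, 0.280 and 0.292 in WT mTEClo and 0.165, 0.350 and 0.530 in cHyper mTEClo. It was 1.55, 2.14 and 1.58 in WT mTEChi and 2.08, 2.27 and 1.58 in cHyper mTEChi. Ptprn2 thus had the higher TPM in all 6 mTEClo libraries and Ptprn in all 6 mTEChi libraries. The order in mTEChi rests on the gene lengths in TPM, 4.249 kb for Ptprn and 8.602 kb for Ptprn2. In fragments Ptprn2 exceeded Ptprn in WT mTEChi replicates 1 (696 against 534) and 3 (374 against 292). It also did in cHyper mTEChi replicate 3 (263 against 205), and in the other mTEChi libraries Ptprn had more. The difference of the log2 ratio between the cell types does not depend on these lengths. The mean log2 ratio differed by 2.63 between the cell types, with p = 0.005 in a two-sided exact permutation test of the 400 assignments within genotype, the smallest p they can give. Within WT the difference was 2.62 and within cHyper 2.64, each with an exact permutation p of 0.1, the smallest that 3 against 3 allows. This ratio was chosen for testing after the levels were known.

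**Figure D2:**
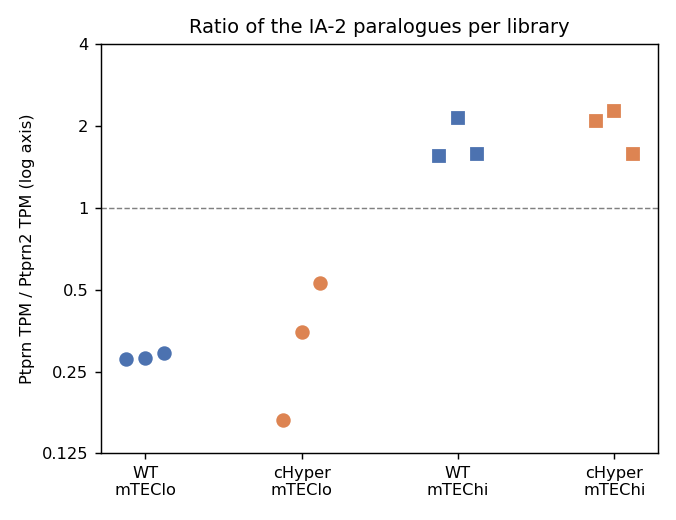
Ratio of Ptprn to Ptprn2 TPM in each of the 12 libraries, on a log axis. Points are libraries and the dashed line marks equal TPM. The mTEClo libraries lie between 0.165 and 0.530, and the mTEChi libraries between 1.55 and 2.27.

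Slc30a8 (ENSMUSG00000022315, mm10 chromosome 15, 52295553 to 52335798, plus strand), the zinc transporter of insulin granules, was near the lower limit of what these libraries detect. None of the WT mTEClo libraries held a fragment of it, and the cHyper mTEClo libraries held 0, 4 and 0. In mTEChi it had 19, 27 and 23 fragments in WT (0.403, 0.584 and 0.829 CPM) and 19, 19 and 16 in cHyper (0.417, 0.438 and 0.658 CPM). The fragment counts of the mTEChi libraries were alike while their depths were not, so the shallower replicate 3 had the highest CPM in both genotypes. Slc30a8 was at least 20.3-fold higher in mTEChi in WT (edgeR adjusted p = 0.000113) and 13.0-fold higher in cHyper (log2 3.70, SE 0.80, edgeR adjusted p = 0.00132). As for Gad2, the filter fixed this direction and the p-values are no support for it. The cHyper fold rests on the 4 fragments of mTEClo replicate 2. It was 8.14 without mTEClo replicate 1, and without replicate 2 the group is at 0 and its fitted fold of 148 is no bound.

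G6pc2 (ENSMUSG00000005232, mm10 chromosome 2, 69211073 to 69227841, plus strand), the islet glucose-6-phosphatase family member, had 0 fragments in all 6 mTEClo libraries. This allows up to 0.0281 CPM over WT mTEClo and 0.0268 over cHyper mTEClo. In mTEChi it had 91, 63 and 50 fragments in WT (1.93, 1.36 and 1.80 CPM) and 74, 62 and 28 in cHyper (1.62, 1.43 and 1.15 CPM). G6pc2 was at least 60.0-fold higher in mTEChi in WT (edgeR adjusted p = 9.71e-07) and at least 54.0-fold higher in cHyper (edgeR adjusted p = 1.6e-06), with every mTEClo library at 0 and every mTEChi library above 1 CPM. Here too the filter fixed the direction, and the p-values are no support for it.

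Per length, the mean TPM in WT mTEChi ran from Gad1 (11.9) over Ptprn (6.37), Ptprn2 (3.70), G6pc2 (2.11) and Slc30a8 (0.744) to Gad2 (0.548). In cHyper mTEChi the order was the same, with 10.3, 5.22, 2.66, 1.64, 0.584 and 0.338. Of the neighbours in the WT order, Slc30a8 and Gad2 overlapped between their libraries and the other pairs did not, and in cHyper mTEChi no neighbouring pair overlapped. For each member both mTEChi groups lay above both mTEClo groups, except that cHyper mTEChi and WT mTEClo overlapped for Ptprn2 (8.74 to 10.8 against 6.85 to 9.42 CPM), and the genotypes overlapped within a cell type except for Ptprn2 in mTEClo. The members thus lay in the lower and middle range of tested genes in WT mTEChi. The share of tested genes below them was 63.5% for Gad1, 50.1% for Ptprn, 39.4% for Ptprn2, 29.2% for G6pc2, 12.7% for Slc30a8 and 9.0% for Gad2.

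The genotype comparison in mTEClo asked whether cHyper changed these genes in the less mature cells. Ptprn2 fell and no other member was called, against 9.16% of all tested genes called, 4.53% higher and 4.64% lower. Its mean was 8.51 ± 1.44 CPM in WT and 4.00 ± 1.43 in cHyper (SD, n = 3 each), 2.14-fold lower (log2 -1.10, SE 0.24, edgeR adjusted p = 0.0102). The groups did not overlap, which in the lower direction held for 12.6% of tested genes and in either direction for 24.4%. The call held in each fit that left out 1 library, with log2 differences between -1.32 and -0.82.

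Ptprn, the paralogue of Ptprn2, had 1.19 ± 0.217 CPM in WT mTEClo and 0.707 ± 0.551 in cHyper mTEClo, a log2 difference of -0.87 (SE 0.37) that was not called (edgeR adjusted p = 0.175). Without cHyper mTEClo replicate 3, the library at the WT level, the difference was -1.60 and passed (edgeR adjusted p = 0.00131), and with replicates 1 and 2 of every group it was -1.52 (edgeR adjusted p = 0.00768). That library also had the highest Chga and Chgb in its group. Chga, which encodes chromogranin A, stood at 105.5 CPM there against 48.4 and 42.2 in the other cHyper mTEClo libraries, and Chgb, which encodes chromogranin B, at 5.37 against 1.85 and 1.75. Of the 9 neuroendocrine markers given further on, Ret (19.4 against 24.3 and 25.3 CPM), Neurod1 (0 against 0.114 and 0.023) and Snap25 (1.79 against 2.56 and 1.29) were not highest there. The macrophage gene Lyz2 stood at 27.8 CPM there against 12.6 in each of the others. Whether these have a part in the Ptprn level was not tested.

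Gad1 was at 0.656 ± 0.171 CPM in WT mTEClo and 0.821 ± 0.314 in cHyper mTEClo, with overlapping libraries and a log2 difference of 0.31 (SE 0.26, 95% interval -0.25 to 0.88, edgeR adjusted p = 0.517). Gad2 and Slc30a8 were each seen in 1 cHyper mTEClo library with 4 fragments and in no WT mTEClo library, which at this depth is no detectable difference (edgeR adjusted p = 0.269 and 0.259). G6pc2 was at 0 in both groups and gave no value.

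In mTEChi, where all 6 members were expressed, the genotypes did not differ detectably in any of them. None was called, against 1.98% of all tested genes (1.56% higher and 0.418% lower), and the libraries of the genotypes overlapped for all 6. At an unadjusted p under 0.05 the count was also 0, and limma-voom and DESeq2 called none. Over all genes this comparison called 572 (451 higher and 121 lower), 1250 with the replicate number as a block, and 352 higher and 181 lower with DESeq2 size factors. The log2 differences were -0.12 for Gad1, with a 95% interval of -0.46 to 0.22, and -0.20 for Ptprn, -0.38 for Ptprn2, -0.26 for G6pc2, -0.27 for Slc30a8 and -0.59 for Gad2. The interval was widest for Slc30a8 (-1.48 to 0.95) and Gad2 (-1.61 to 0.43), the members with the fewest fragments. For Ptprn2 it ran from -0.88 to 0.11. Between libraries of the same number, Gad2, Ptprn and Ptprn2 were lower in cHyper in all 3 pairs. Gad1 and Slc30a8 were higher in cHyper in pair 1 and G6pc2 in pair 2, and each was lower in the other pairs. With the pairs as a block none of the 6 was called.

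Whether a genotype effect differed between mTEChi and mTEClo was tested directly. No member was called, against 2.06% of all tested genes (1.13% with a higher and 0.926% with a lower effect in mTEChi). Ptprn2 had the largest estimate among members with fragments in every group, 0.72 on the log2 scale (SE 0.33, 95% interval 0.005 to 1.43, unadjusted p = 0.0487, edgeR adjusted p = 0.348). Ptprn had 0.67 (edgeR adjusted p = 0.57) and Gad1 -0.43 (edgeR adjusted p = 0.584). The fall of Ptprn2 in mTEClo is therefore not shown to differ from its change in mTEChi. At an unadjusted p under 0.05 the members were Ptprn2 and Gad2 (0.0486), whose WT mTEClo libraries were at 0.

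**Figure D3:**
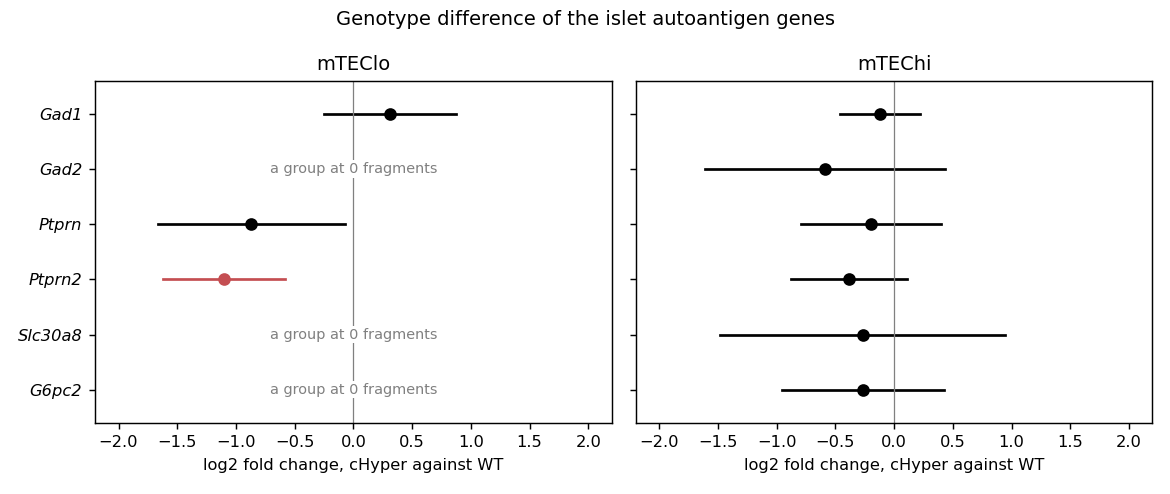
Log2 fold change of cHyper against WT for each gene in mTEClo (left) and mTEChi (right), with points for edgeR estimates and bars for 95% intervals that are not adjusted for the number of genes. Red marks the only call, Ptprn2 in mTEClo at -1.10, and genes with a group at 0 fragments have no estimate.

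Some of the genes that work in dense-core granules fell in mTEClo, where Ptprn2 fell. Of 16 granule and processing genes tested, 4 fell in cHyper mTEClo and 0 rose, and the median log2 difference was -0.61 against 0.001 over all tested genes. Of all tested genes 4.64% were called lower there and 4.53% higher. Scg2, which encodes the granule protein secretogranin II, fell 3.67-fold, from 7.25 ± 2.30 to 2.02 ± 0.649 CPM (SE of the log2 change 0.25, edgeR adjusted p = 0.000279). Chgb fell 4.90-fold, from 14.2 ± 7.20 to 2.99 ± 2.06 CPM (SE of the log2 change 0.42, edgeR adjusted p = 0.00317), and 7.84-fold without cHyper mTEClo replicate 3. Pcsk1, a protease that processes prohormones, fell 2.50-fold, from 1.75 ± 0.439 to 0.723 ± 0.220 CPM (SE of the log2 change 0.27, edgeR adjusted p = 0.00565). The other call, for the exocytosis protein Stx1a (log2 -0.68, edgeR adjusted p = 0.0391, named after its values were seen), was lost when any WT mTEClo library, replicate 1 or 3 of cHyper mTEClo, or replicate 2 of cHyper mTEChi was left out (edgeR adjusted p from 0.0549 to 0.104). The Stx1a call also ended without the filter (edgeR adjusted p = 0.0659), with the compared groups alone (0.0792) and with replicates 1 and 2 alone (0.173). Chga did not fall, with 44.4 ± 12.8 CPM in WT and 65.4 ± 34.9 in cHyper (edgeR adjusted p = 0.289). Vgf, a granule peptide precursor, was named after its values were seen. Its log2 difference was -0.84 (edgeR adjusted p = 0.434) and was -2.16 (0.0208) without cHyper mTEClo replicate 3.

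In mTEChi 1 of the 16 granule genes, the calcium sensor Syt7, was called lower in cHyper (82.6 ± 4.49 CPM in WT and 50.3 ± 5.51 in cHyper, log2 -0.72, edgeR adjusted p = 0.0255), and the call was lost when replicate 1 (0.0544), 2 (0.0705) or 3 (0.104) of WT, or replicate 1 (0.0969) or 2 (0.128) of cHyper, was left out. The median of the list was -0.10 there. Between the cell types 12 of 16 were higher and 1 lower in mTEChi in each genotype. Over all tested genes 40.2% were called higher and 29.4% lower in WT, and 38.7% and 25.8% in cHyper. The cell-type counts of the lists below stand beside the same shares. Cadps, a priming factor for granule release, was 6.15-fold higher in WT and 7.92-fold in cHyper. Vgf was 152-fold higher in WT and 237-fold in cHyper, and Syt7 9.95-fold and 8.30-fold. The cHyper mTEClo group held 22 fragments of Vgf, and without its replicate 3, which held 15 of them, the fold was 571.

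**Figure D4:**
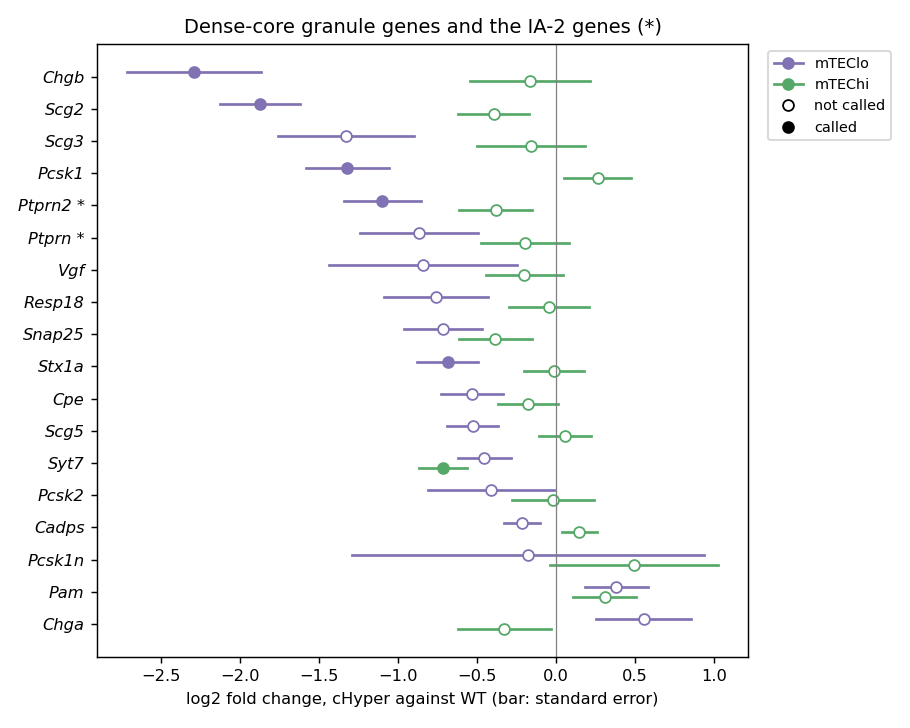
Log2 fold change of cHyper against WT for 16 dense-core granule genes and, marked with a star, Ptprn and Ptprn2, in mTEClo (purple) and mTEChi (green). Bars are standard errors and filled points are calls. Chgb, Scg2, Pcsk1, Stx1a and Ptprn2 are the calls in mTEClo, and Syt7 is the one in mTEChi.

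Of 13 other islet autoantigens, Iapp, which encodes amylin and is stored with insulin, had the smallest p in mTEClo and fell 3.95-fold, from 15.4 ± 1.01 to 3.85 ± 0.700 CPM (SE of the log2 change 0.19, edgeR adjusted p = 1.07e-05). The only other call of that list in mTEClo was a rise of Gfap, a glial filament protein (log2 1.18, edgeR adjusted p = 0.046), and the list's median was 0.07. The Gfap call ended without any single library other than WT mTEClo replicate 1, at edgeR adjusted p from 0.0511 to 0.152. It also ended in limma-voom (adjusted p = 0.0528), with the compared groups alone (edgeR adjusted p = 0.149) and with replicates 1 and 2 alone (0.194). Iapp had 45.2 ± 10.1 CPM in WT mTEChi and 30.6 ± 5.11 in cHyper mTEChi (edgeR adjusted p = 0.127), and this difference passed without WT mTEChi replicate 1 (0.0351). Between the cell types 10 of the 13 were higher and 3 lower in mTEChi in WT, and 9 and 3 in cHyper. Insulin RNA was nearly absent from mTEClo, as were Slc30a8 and G6pc2. Ins2 stood at 10.1 ± 2.57 CPM in WT mTEChi and 10.9 ± 2.96 in cHyper mTEChi, and had 6 and 7 fragments in all over the WT and cHyper mTEClo groups. Ins1 had 0 fragments in mTEClo and stood at 0.301 ± 0.0358 CPM in WT mTEChi and 0.176 ± 0.0536 in cHyper mTEChi.

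Of 9 other SLC30 zinc exporters, 4 were higher and 2 lower in mTEChi in WT, and 4 and 3 in cHyper. The shares of all tested genes were 40.2% higher and 29.4% lower in WT, and 38.7% and 25.8% in cHyper. Slc30a3, a zinc transporter of synaptic vesicles, had 0 fragments in WT mTEClo and 3.35 ± 0.605 CPM in WT mTEChi, at least 117-fold higher. In cHyper mTEClo 1 of the 9 was called. Slc30a10, a manganese exporter, fell 2.42-fold, from 1.97 ± 0.464 to 0.824 ± 0.314 CPM (SE of the log2 change 0.25, edgeR adjusted p = 0.00527), and the call ended when the fit held the compared groups alone (edgeR adjusted p = 0.0649).

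Of 5 genes of the glucose-6-phosphatase system, 3 were higher and 1 lower in mTEChi in each genotype. G6pc, the liver enzyme of the family, had 0 fragments in WT mTEClo and 8.28 ± 1.80 CPM in WT mTEChi, at least 284-fold higher. In cHyper mTEClo it had 11 fragments over the group, at least 3.50-fold more than WT (edgeR adjusted p = 0.0182), a call that was lost when WT mTEClo replicate 1 (0.0552) or replicate 2 of cHyper mTEClo (0.0546) was left out. Slc2a2, the islet and liver glucose transporter GLUT2, was 30.4-fold higher in mTEChi in WT and 36.0-fold in cHyper.

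Of 9 genes listed around GABA synthesis, packaging and breakdown other than the members, 5 were higher and 3 lower in mTEChi in WT, and 4 and 4 in cHyper. Not all of the listed genes make, pack or break down GABA itself, Csad, Gadl1, Gabrr1 and Glul among them. The GABA transporter Slc6a13 was 286.5-fold higher in WT and 71.2-fold in cHyper. Its WT mTEClo libraries held 5 fragments in all, and without replicate 1, which held 4 of them, the WT fold was 757. Glul, which makes glutamine, was 7.33-fold lower in WT and 5.64-fold lower in cHyper. Of 19 other receptor-type tyrosine phosphatases, 7 were higher and 7 lower in mTEChi in WT, and 5 and 10 in cHyper, with medians of -0.18 and -0.36. Ptprf and Ptprd, phosphatases of adhesion contacts, were 3.94-fold and 2.93-fold lower in mTEChi in WT. Ptprt was the only one of the 19 called in the mTEClo genotype comparison, and rose 4.30-fold, from 12.3 ± 5.17 to 53.6 ± 9.75 CPM (SE of the log2 change 0.24, edgeR adjusted p = 5.39e-05), opposite in sign to Ptprn2.

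Of 13 islet transcription factors, 9 were higher and 2 lower in mTEChi in WT, 10 and 2 in cHyper, and 0 were called for the genotype in either cell type. Insm1, a zinc finger factor of endocrine cells, was 16.3-fold higher in mTEChi in WT and 12.8-fold in cHyper. Neurog3, which starts the endocrine programme in the pancreas, was 32.7-fold and 15.7-fold higher, and in cHyper 10.2-fold without mTEClo replicate 1 and 27.2-fold without mTEClo replicate 2. Isl1 went the other way and was 4.34-fold and 3.22-fold lower.

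The targeted gene and the regulators of tissue antigens were measured as reference. The mTEClo level of Trp53 was 137 ± 0.958 CPM in WT and 166 ± 11.6 in cHyper (edgeR adjusted p = 0.0553), and at 101 ± 4.60 and 134 ± 4.65 CPM in mTEChi (edgeR adjusted p = 0.020). The mTEClo difference passed with the replicate number as a block (0.0275), in DESeq2's test (0.00972) and in limma-voom (0.0475). The mTEChi call of Trp53 was lost when replicate 1 (0.133) or 2 (0.14) of WT, or replicate 1 (0.11) or 3 (0.0895) of cHyper, was left out. Its RNA level does not check a genotype that may change the protein. Aire rose in cHyper mTEClo 3.12-fold, from 14.3 ± 2.60 to 44.5 ± 6.46 CPM (SE of the log2 change 0.17, edgeR adjusted p = 2.39e-05), and stood at 1919 ± 2.82 and 1644 ± 321 CPM in WT and cHyper mTEChi (edgeR adjusted p = 0.548). Fezf2, another regulator of tissue antigens, was 2.99-fold higher in mTEChi in WT and was not called for the genotype in either cell type. In cHyper mTEClo Aire rose and Ptprn2 fell, and whether these changes are related or lie in the same cells was not tested.

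The marker sums followed the labels of the sorted cells, and markers of other cells moved with the cell type. The 8 mTEC markers summed to between 17740 and 27150 CPM in every library, and 4 were called higher and 2 lower in mTEChi in each genotype. The 7 markers of mature mTEC summed to 3388 to 3771 CPM in mTEClo and 8609 to 10770 in mTEChi. The 6 of immature mTEC summed to 9258 to 11570 CPM in mTEClo, 949 to 1063 in WT mTEChi and 1509 to 2134 in cHyper mTEChi. In the mTEChi genotype comparison 3 of these 6 were called higher in cHyper and 1 lower (median 0.51), against 1.56% and 0.418% of all tested genes. The sorted mTEChi of the genotypes thus differed in immature markers, and a part of this in the member levels was not tested. Of the mature markers 7 were called higher in mTEChi in WT and 6 in cHyper. Of the immature markers 5 were called lower in each genotype, and 1 higher in cHyper. Krt15 did not fall, with 21.8 to 31.8 CPM in WT mTEClo and 29.9 to 34.9 in WT mTEChi. In cHyper it stood at 0.988 to 2.24 CPM in mTEClo and 13.2 to 14.3 in mTEChi. The 9 markers of neuroendocrine mimetic cells, thymic epithelial cells that take on features of endocrine tissue, summed to 83.8 to 123 CPM in the WT mTEClo libraries, 96.1 to 161 in cHyper mTEClo, 418 to 509 in WT mTEChi and 374 to 432 in cHyper mTEChi. Of these 9, 8 were called higher in mTEChi in WT and 7 in cHyper, while in the mTEClo genotype comparison 3 were called lower and 1 higher (median -0.72). Their part in the member differences was not tested, and Chga, Chgb, Scg2 and Snap25 are on this list and on that of the granule genes.

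Markers of several other cell types were also higher in mTEChi. The 7 markers of cortical thymic epithelium summed to 260 to 429 CPM in mTEClo and 593 to 639 in mTEChi. Of these, 5 were called higher and 1 lower in mTEChi in WT, and 5 and 2 in cHyper. Prss16 went the other way, with 73.5 to 134 CPM in mTEClo and 31.2 to 55.6 in mTEChi. The 11 thymocyte markers summed to 15.2 to 47.6 CPM in mTEClo and 66.9 to 93.5 in mTEChi, and the 5 B cell markers to 6.27 to 11.4 and 59.8 to 74.6. The 10 myeloid and dendritic markers summed to 28.7 to 46.4 CPM in mTEClo, where Cd209a was at 0 in WT, and to 495 to 664 in mTEChi. The 5 endothelial markers summed to 2.28 to 4.93 CPM in mTEClo and 28.0 to 48.8 in mTEChi, and the 7 Schwann and neural markers to 41.1 to 53.3 and 134 to 162. The 5 pancreatic acinar markers summed to 2.79 to 4.48 CPM in mTEClo, where Cpa1 was at 0 in both genotypes and Pnlip and Amy2a5 in WT, and to 12.3 to 14.6 in mTEChi. The fibroblast markers did not follow: their 6 genes summed to 143 to 225 CPM in mTEClo and 116 to 189 in mTEChi, with 2 called higher and 2 lower in mTEChi in WT and 3 and 3 in cHyper (medians -0.52 and -0.56). The part of other cells in the member levels was not tested.

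The genes most like each member over the 12 libraries were found by the root mean square difference of centred log2 CPM. For Gad1 they were the intestinal alkaline phosphatase Akp3 (0.21 log2 units), the prokineticin receptor Prokr2 (0.23) and the costimulatory receptor Tnfrsf9 (0.24). For Ptprn they were Ccm2l (0.19), Sapcd1 (0.21) and Abcc8 (0.28), which encodes the sulphonylurea receptor of beta cells. For Ptprn2 they were Ccn3 (0.19), the netrin receptor Unc5b (0.20) and Fbxl16 (0.23). For G6pc2 they were Tdpoz9 (0.16), H2-M11 (0.16) and Pfpl (0.18), for Slc30a8 Cxcr2 (0.24), Ms4a4a (0.25) and Gpr37 (0.28), and for Gad2 Nphs1os (0.24), the bile acid receptor Nr1h4 (0.25) and the lipid droplet protein Plin1 (0.27). None of these genes lies next to the member it resembled.

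The neighbourhood of the members bears on how their fragments were assigned. Gad1os overlaps Gad1 on the opposite strand and had 26 fragments in WT mTEChi in all, against 4425 of Gad1. Gm28294 overlaps Ptprn on the opposite strand and had 104 against 1346. Gm6750 overlaps Ptprn2 on the opposite strand and counted 841 fragments over the WT and 1020 over the cHyper mTEClo group, while Ptprn2 had 889 and 426, so the overlapping gene did not fall with it. The libraries marked strand but the strand setting of the counting was not given in the sources used here, and antisense partners may share fragments. Resp18, a granule gene that lies 7697 bases from Ptprn on the same strand, was 18.8-fold higher in mTEChi in WT and 30.9-fold in cHyper. Abcb11, a bile salt exporter gene 10441 bases from G6pc2, had 4 and 5 fragments in the WT and cHyper mTEClo groups and 611 and 318 in the mTEChi groups.

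Depth and sex-linked RNA moved with the replicate number and not with the groups. Replicates 1 and 2 held 42.08 to 47.93 M fragments and replicate 3 held 22.02 to 25.31 M. Xist, expressed from the inactive X, stood at 1013 to 1759 CPM in the replicate 3 libraries and at 3.73 to 8.35 in the others. The Y-linked Ddx3y was at 0 in replicate 3 and at 63.5 to 85.3 CPM in the others. The call of Ptprn2 in mTEClo held with replicates 1 and 2 alone.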

How the data were processed

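RNA of sorted mTEClo and mTEChi from WT and cHyper thymus was measured in 12 libraries, 3 per group. The members and gene lists were chosen with earlier results of these data known. The authors deposited 1 table of fragment counts and TPM per gene, with 1 column per group and replicate number although replicates 1 and 2 were run 2 times each. The submitters' processing notes name mm10, TopHat2 2.1.1, SAMtools 1.9, featureCounts and Subread 2.0.1. Strand setting and annotation release were not given in the sources used here, and overlapping genes and near-identical copies are uncertain. The deposited TPM compared genes and entered no gene test.

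After TMM scaling and filterByExpr, edgeR 4.0.16 (R 4.3.3) fitted the group means of all 12 libraries at once, leaving 8 residual degrees of freedom, and its quasi-likelihood F test gave p. A gene was called at a Benjamini-Hochberg adjusted p under 0.05 over 28932 genes. The code was tested on simulated data. A fold against a group at 0 was taken against 3 fragments over the group, for counting error only. Standard deviations are over 3 libraries. Precision follows depth, 22.02 to 47.93 M fragments per library.

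Named by rule were the members, Trp53, Aire, Fezf2, up to 3 genes per list and comparison with the smallest p, the 3 genes most like each member (prior count 2, mean CPM between 0.5 and 10 times the member's) and overlapping or neighbouring genes. Other genes named, Stx1a, Vgf, Chga, Lyz2 and Ins1 among them, were chosen after their values were seen. A gene that the rule names is not reported here. The 8 pathway lists and 12 marker lists are described by counts and medians.

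Alternatives were DESeq2 size factors, library totals, no filter, DESeq2 1.42.0, limma-voom (limma 3.58.1), the compared groups alone, the replicate number as a block, replicates 1 and 2 alone, and each library left out. Same-numbered libraries deviated together. The correlations of their deviations were 0.167, 0.136 and 0.206 for the genotype in mTEChi and 0.111, 0.104 and 0.125 for the cell type in cHyper. For the genotype in mTEClo they were 0.18, 0.097 and 0.171 and for the cell type in WT 0.172, 0.093 and 0.233. All were positive and of similar size, so the numbers may pair the libraries in every comparison. Replicate 3 of every group also shared depth and sex-linked RNA. The main fit held no replicate term in any comparison, and the replicate number entered only as the block alternative. Where the pairing comes from is not given in the labels.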

Additional observations from a re-analysis of the deposited data

Results flagged for a closer look

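None of the 6 members was called for a difference between the cell types in its genotype effect with all 12 libraries, and Ptprn was called without cHyper mTEClo replicate 3 (1.40, edgeR adjusted p = 0.0298). Genes of the accompanying lists were called, by edgeR's test of the difference between the genotype effects in mTEChi and mTEClo. Iapp fell in cHyper mTEClo and its effect differed from that in mTEChi (log2 difference 1.43, edgeR adjusted p = 0.00881). Scg2 (1.48, edgeR adjusted p = 0.0372) and Pcsk1 (1.58, edgeR adjusted p = 0.0276) did likewise. The Scg2 call ended without any single library other than WT mTEClo replicate 2 or cHyper mTEClo replicate 3 (edgeR adjusted p from 0.0507 to 0.11). It also ended with DESeq2 size factors (edgeR adjusted p = 0.0503), library totals (0.0571) and replicates 1 and 2 alone (0.0602). The Pcsk1 call ended without WT mTEClo replicate 1, cHyper mTEClo replicate 1 or 2, any WT mTEChi library, or cHyper mTEChi replicate 1 or 2 (from 0.0563 to 0.0766). It also ended in limma-voom (adjusted p = 0.0512) and with replicates 1 and 2 alone (edgeR adjusted p = 0.0567). G6pc, at 0 fragments in WT mTEClo, differed in the opposite direction (edgeR adjusted p = 0.0303), as did Ptprt (log2 -2.49, edgeR adjusted p = 0.00122) and Aire (log2 -1.87, edgeR adjusted p = 0.000941). The G6pc call ended when replicate 1 or 2 of WT mTEClo, replicate 2 or 3 of cHyper mTEClo, or any cHyper mTEChi library was left out (edgeR adjusted p from 0.051 to 0.0768), and with replicates 1 and 2 alone (0.128).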

How the results depend on the processing

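The fits of the 6 members were repeated under 513 alternatives, counted per gene and comparison, of which 504 kept their direction and side of the threshold. Among the 504 were the cell-type fits of Gad2, Slc30a8 and G6pc2, 20 per gene and genotype, whose direction the filter fixed. The members called in the mTEClo genotype comparison numbered 1 and became 2, both lower, with replicates 1 and 2 alone and without cHyper mTEClo replicate 3; leaving out each library in turn gave 1 to 2. The difference between the genotype effects had 0 members called and 1 (Ptprn, 1.40, edgeR adjusted p = 0.0298) without cHyper mTEClo replicate 3, so leave-one-out fits gave 0 to 1. Ptprn2 between the cell types of WT also lost its call with replicates 1 and 2 alone (edgeR adjusted p = 0.0796). The sign turned for Gad1 in the mTEChi genotype comparison with replicates 1 and 2 alone (0.019) and for Slc30a8 there without WT mTEChi replicate 3 (0.006, with a range of -0.54 to 0.006 over the fits without 1 library), both uncalled. The cause of these changes was not tested beyond the libraries left out. The group order of all 6 members was kept under DESeq2 size factors, library totals and the deposited TPM. The log2 ratio difference of Ptprn to Ptprn2 ran from 2.46 to 2.80 over fits without 1 library and was 2.94 with replicates 1 and 2 alone, alternatives chosen after seeing the data.

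Over all genes, the mTEChi genotype comparison called 572 (451 higher and 121 lower), but 352 higher and 181 lower with DESeq2 size factors and 335 and 184 with library totals. It called 1455 with DESeq2's own test, 862 with limma-voom, 1126 with the compared groups alone, 312 with replicates 1 and 2 alone and 296 to 333 without single mTEChi libraries. The difference between effects called 595, but 1425 with DESeq2's own test, 1103 without the filter, 282 with replicates 1 and 2 alone and 338 to 406 without single mTEChi libraries. With the replicate number as a block these counts were 1250 and 1186, and no member's call changed. In every comparison 6 of 6 libraries correlated best with their own number. Depth limits Gad2, G6pc2 and Slc30a8, with at most 91, 91 and 27 fragments in a library.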
